A study of Mus musculus with 16 samples.

Results

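The Dlx genes are the mouse homologs of the fly gene Distal-less and encode homeodomain transcription factors. The group described here is the 6 rows whose gene symbol is Dlx1, Dlx2, Dlx3, Dlx4, Dlx5 or Dlx6, out of 15876 genes measured. Total RNA was sequenced from small regions of the embryonic head in 16 libraries of CD1 mice, an outbred stock, and the labels name no mutation and no treatment. The 4 regions of embryonic day 8.5 (E8.5) were floor plate, mesoderm, and neural epithelium of the caudal brain and of the non-floor plate. The 4 of E9.5 were the mandibular and maxillary arches, the epidermal ectoderm and the cranial mesenchyme. The 8 of E10.5 were both arches again, the olfactory pit, the lateral nasal and the medial nasal prominence, and neural epithelium of the lateral prominence, of a dorsal control and of a region called central. Each region and stage has 1 library, and how many embryos each holds is not given in the sources used here.

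In mammals the Dlx genes lie in linked pairs. In RefSeq, Dlx1 and Dlx2 are on chromosome 2, Dlx3 and Dlx4 on chromosome 11 and Dlx5 and Dlx6 on chromosome 6, with 0 protein-coding genes between the members of each pair. In the pharyngeal arches, crest-derived mesenchyme uses the pairs in a nested way. Dlx1 and Dlx2 are active along the whole proximal to distal length of the arch, Dlx5 and Dlx6 in the distal (mandibular) part downstream of endothelin signalling, and Dlx3 and Dlx4 nearest the tip. In mouse, loss of Dlx5 and Dlx6 together turns the lower jaw towards an upper jaw form. Dlx5 is also an early gene of the non-neural ectoderm and the olfactory placode, Dlx3 acts in skin and other ectodermal organs, and Dlx1, Dlx2, Dlx5 and Dlx6 act in GABAergic neuron precursors of the ventral forebrain.

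The deposited value of a gene is a ratio to its own median over the 16 libraries. A level is here the value of a library divided by the lowest value of that gene, so it compares libraries for 1 gene and never 1 gene with another. The lowest value is shared by 6 to 15 libraries for each Dlx gene, and a library at this shared value is called at the floor. A fold against a library at the floor is a lower bound, written "at least". The labels state more than 40000000 reads a library, and the exact depths are unknown. Fewer cells of a type and less RNA per cell cannot be told apart in these bulk samples.

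Some libraries stand apart and touch the Dlx results. The library labelled E10.5 medial nasal prominence goes against its label: all 10 neural epithelium markers were above the floor in it, 1 of 10 crest and head mesenchyme markers was, with a summed level of 10, and Twist1 and Prrx1 were at the floor. In the E10.5 lateral nasal prominence library the same counts were 1 of 10 neural and 8 of 10 mesenchyme markers, with a summed mesenchyme level of 130.0. The libraries titled E10.5 central and dorsal control neural epithelium have each other's short code as column header (DCNE and CNE), while the other 14 headers match, so these are called by their titles with the word labelled. Median log2 ratios of genes that never tie at their lowest value were −0.82 and −0.70 in the E10.5 maxillary and mandibular arch libraries and 0.35 and 0.30 in those of E9.5. In the same order, 39.6% and 43.0% of all genes were above the floor in the E10.5 arch libraries, against 69.9% and 66.5% in those of E9.5.

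Dlx1 and Dlx2 are the pair for which promoters were at hand. They are shown because both genes were high in the E9.5 arch libraries and in the one labelled medial nasal prominence. Dlx2, unlike Dlx1, was close to the floor in the E10.5 arches. The 250 bases before each start are given 5′ to 3′ on the strand of the gene, from RefSeq (build GRCm38.p6), at chr2:71529195-71529444 on the plus strand for Dlx1 and chr2:71546755-71547004 on the minus strand for Dlx2. Capitals mark matches to the motifs searched on both strands.
Dlx1: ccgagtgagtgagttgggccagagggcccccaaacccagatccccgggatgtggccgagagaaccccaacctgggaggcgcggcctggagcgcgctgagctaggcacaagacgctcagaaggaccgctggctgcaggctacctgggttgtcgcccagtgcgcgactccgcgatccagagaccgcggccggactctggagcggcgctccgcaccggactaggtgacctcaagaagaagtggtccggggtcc
Dlx2: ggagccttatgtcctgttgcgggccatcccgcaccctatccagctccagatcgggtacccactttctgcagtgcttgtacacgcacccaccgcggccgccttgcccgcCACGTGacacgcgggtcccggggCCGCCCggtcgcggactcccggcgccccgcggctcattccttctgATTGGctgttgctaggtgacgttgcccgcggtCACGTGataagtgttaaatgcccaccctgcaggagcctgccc

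The Dlx2 window held the E-box CACGTG at 2 places, which 6.02% of 32851 promoters hold at least once. It held the CCAAT box (CCAAT, 33.8% of promoters) and the GC box (GGGCGG, 32.7%) once each, both on the other strand, and no match overlapped another. The Dlx1 window held none of the 3, and neither window held the homeodomain core TAATT, which 25.0% of promoters hold. Both windows were rich in G and C, at 68.0% for Dlx1 and 66.4% for Dlx2, against a median of 52.4% over all promoters.

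The 6 genes fell into patterns that followed the linked pairs only in part. Dlx5 was above the floor in 10 libraries, Dlx2 in 9, Dlx1 and Dlx6 in 8 each, Dlx3 in 4 and Dlx4 in 1. The E9.5 mandibular arch library was the one with all 6 above the floor, where 66.5% of all genes were. The E9.5 maxillary arch library had 5. None was above the floor in the E8.5 caudal brain, E8.5 floor plate, E9.5 cranial mesenchyme and E10.5 lateral nasal prominence libraries, in which 57.5% to 68.3% of all genes were. With 1 library for a region and stage, the spread of a level is unknown, so the orders below describe these libraries.

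**Figure D1:**
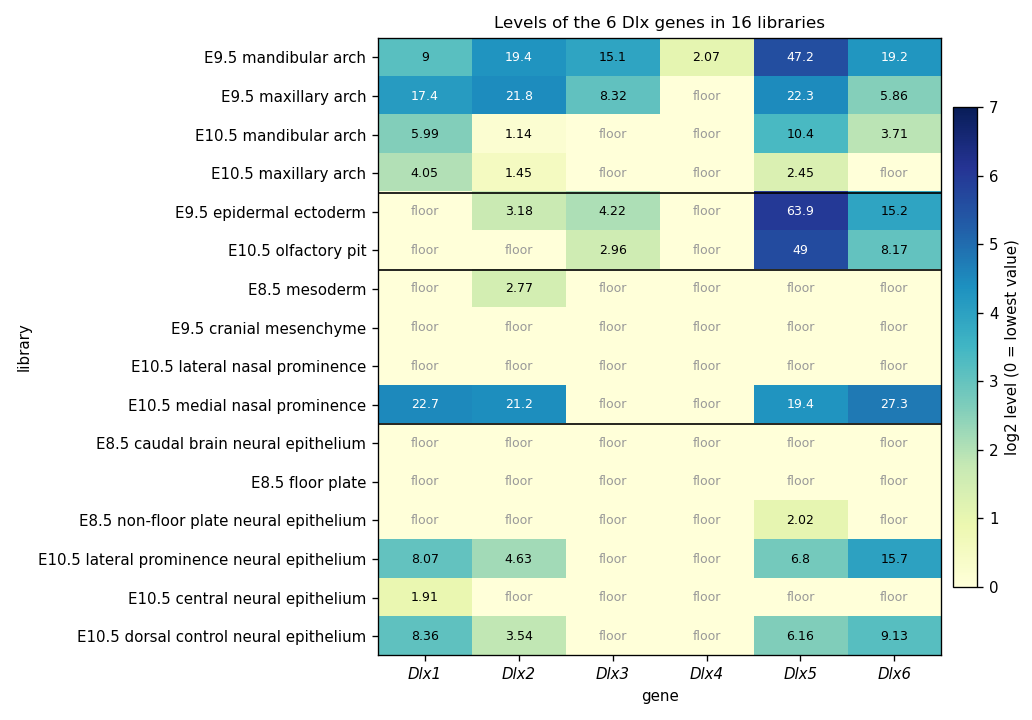
Levels of the 6 Dlx genes (columns) in the 16 libraries (rows, by tissue class, with black lines between classes: arch, ectoderm, other mesenchyme by label, neural epithelium). Colour is log2 of the level, numbers are levels and "floor" marks the gene's shared lowest value. Dlx5 is highest in the 2 ectoderm libraries, at 63.9 and 49.0, and the library labelled medial nasal prominence holds Dlx1, Dlx2, Dlx5 and Dlx6 between 19.4 and 27.3.

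Dlx5, the gene of the distal arch and the placodes, had its highest levels in ectoderm, at 63.9 in E9.5 epidermal ectoderm and 49.0 in the E10.5 olfactory pit. Next came the E9.5 mandibular arch at 47.2, the E9.5 maxillary arch at 22.3, the library labelled medial nasal prominence at 19.4 and the E10.5 mandibular arch at 10.4. Lower levels were 6.80 in the lateral prominence neural epithelium, 6.16 in the library labelled dorsal control, 2.45 in the E10.5 maxillary arch and 2.02 in the E8.5 non-floor plate neural epithelium. The gene thus spanned all 3 uses, ectoderm, arch and neural, in 1 series.

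Dlx6, its linked partner, was highest at 27.3 in the library labelled medial nasal prominence. It followed at 19.2 in the E9.5 mandibular arch, 15.7 in the lateral prominence neural epithelium, 15.2 in the epidermal ectoderm, 9.13 in the library labelled dorsal control and 8.17 in the olfactory pit. The E9.5 maxillary arch had 5.86 and the E10.5 mandibular arch 3.71. The other 8 libraries were at the floor, among them the E10.5 maxillary arch, where Dlx5 was at 2.45.

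Dlx1, which is used along the whole arch, was highest at 22.7 in the library labelled medial nasal prominence. The E9.5 arches followed with 17.4 in the maxillary and 9.0 in the mandibular library. It stood at 8.36 in the library labelled dorsal control, 8.07 in the lateral prominence neural epithelium, 5.99 and 4.05 in the E10.5 mandibular and maxillary arches and 1.91 in the library labelled central. Both ectoderm libraries were at its floor, unlike those of Dlx5.

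Dlx2, the partner of Dlx1, stood at 21.8 and 19.4 in the E9.5 maxillary and mandibular arches and at 21.2 in the one labelled medial nasal prominence. The lateral prominence neural epithelium had 4.63, the library labelled dorsal control 3.54, the epidermal ectoderm 3.18 and the E8.5 mesoderm 2.77. The E10.5 arches were close to the floor, with 1.45 in the maxillary and 1.14 in the mandibular library. The mesoderm library was one of 2 in which Dlx2 was above the floor and Dlx1 was not, the epidermal ectoderm being the other.

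Dlx3, known for ectodermal organs and the distal arch, was above the floor in E9.5 arches and ectoderm alone among the 16 libraries. Its levels were 15.1 in the E9.5 mandibular arch, 8.32 in the E9.5 maxillary arch, 4.22 in the epidermal ectoderm and 2.96 in the olfactory pit. All neural libraries and both E10.5 arches were at its floor. In the E10.5 mandibular and maxillary arches 43.0% and 39.6% of all genes were above the floor, so being at it was common there. Dlx4, its partner, was above the floor in the E9.5 mandibular arch alone, at 2.07, which is the library where Dlx3 was highest.

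The mandibular and maxillary arches were compared at both stages, which asks how far the 6 genes separate the future lower jaw from the upper. At E9.5, Dlx5 was at 47.2 in the mandibular arch, against 22.3 in the maxillary arch, a 2.12-fold higher level. Dlx6 was at 19.2 in the mandibular arch, against 5.86 in the maxillary arch, a 3.28-fold higher level. Dlx1 leaned the other way, at 9.0 in the mandibular and 17.4 in the maxillary arch, a 1.94-fold lower level that did not reach the 2-fold set for a call. Dlx2 was at 19.4 in the mandibular and 21.8 in the maxillary arch, and Dlx3 at 15.1 in the mandibular and 8.32 in the maxillary arch.

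A gene was called between 2 libraries when its level was at least 5 in the higher one and the fold at least 2. By this rule 2 of the 5 eligible Dlx genes, Dlx5 and Dlx6, were called higher and none lower, where 7.39% of 2477 eligible genes were called higher and 15.6% lower. Dlx4, at 2.07 in the mandibular arch and at the floor in the maxillary arch, was not eligible. No p-value can be given for 1 library against 1.

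At E10.5, Dlx5 was at 10.4 in the mandibular arch, against 2.45 in the maxillary arch, a 4.24-fold higher level. It was the called one of the 2 eligible Dlx genes, where 39.9% of 576 eligible genes were called higher and 26.2% lower, so a call there was common. Dlx6 was at 3.71 in the mandibular arch and at the floor in the maxillary arch, at least 3.71-fold higher but under the level for a call. Dlx1 was at 5.99 in the mandibular and 4.05 in the maxillary arch, the opposite order to E9.5. Dlx2 was at 1.14 in the mandibular and 1.45 in the maxillary arch, both near the floor. Dlx3 and Dlx4 were at the floor in both, where 43.0% and 39.6% of all genes were above it.

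**Figure D2:**
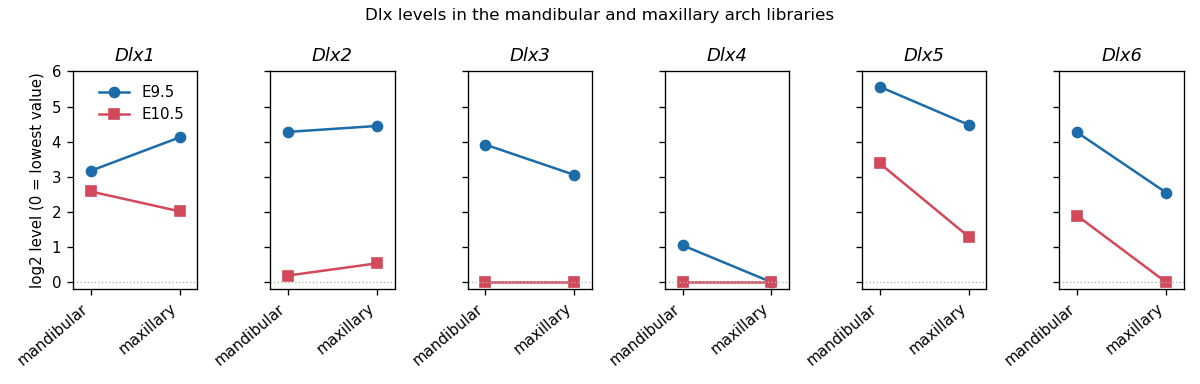
Log2 level (y axis, 0 is the lowest value) of each Dlx gene in the mandibular (left) and maxillary (right) arch libraries, with circles for E9.5, squares for E10.5 and 1 library a point. Lines join the 2 arches of a stage. Dlx5 and Dlx6 slope down towards the maxillary arch at both stages, and Dlx1 slopes up at E9.5 and down at E10.5.

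Both stages were joined in 1 limma fit of the 4 arch libraries with stage as a term. It left 1 residual degree of freedom, so each SE leans on the spread of other genes. The log2 fold of mandibular over maxillary arch was 1.80 ± 0.37 (SE) for Dlx6, at an unadjusted p of 0.00485, and 1.58 ± 0.50 for Dlx5, at an unadjusted p of 0.0259. It was −0.20 ± 0.76 for Dlx1 and −0.26 ± 0.54 for Dlx2. Benjamini-Hochberg adjusted p was 1 for each of these 4 genes in limma, and Dlx3 and Dlx4 were not tested, since fewer than 3 of the 4 libraries were above their floor. Of 8685 genes tested, 0 were called (0.0%) and 138 had an unadjusted p under 0.05, 2 of the 4 tested Dlx genes among them. Each stage had 1 library of each arch, and both stages had Dlx5 and Dlx6 higher in the mandibular library. Dlx6 was at the floor in the E10.5 maxillary arch, so its fold in this fit is a lower bound and its SE is not exact.

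The distal arch list, 18 genes known as partners or targets of endothelin and of Dlx5 and Dlx6, had 17 measured genes. At E9.5, 7 of its 11 eligible genes were higher in the mandibular arch and 0 lower, and the list's median log2 fold was 1.22, against −0.05 over all genes above the floor. The 5 of largest fold were Hand2, Msx2, Foxf1, Hand1 and Msx1. Hand2, a transcription factor of the distal arch, was at 25.2 in the mandibular arch and at the floor in the maxillary arch, at least 25.2-fold higher. Msx2, a homeobox gene of distal mesenchyme, was at 29.3 in the mandibular and 2.96 in the maxillary arch. At E10.5, 3 of 7 eligible genes were higher and 0 lower, namely Hand2, Cited1 and Pitx1. With 39.9% of all eligible genes called higher there, that count is near the background and is no result about the list. Hand2 was then at 15.5 in the mandibular arch and at the floor in the maxillary arch.

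Of the 10 genes in the list of maxillary and proximal arch genes, 3 of 8 eligible ones were lower in the mandibular arch at E9.5 and 0 higher. Pou3f3, a POU factor of the upper jaw, was at the floor in the mandibular arch and at 8.51 in the maxillary arch. Nr2f1, an orphan nuclear receptor, was at 8.39 in the mandibular and 30.4 in the maxillary arch at E9.5, and at 18.1 in the mandibular and 2.99 in the maxillary arch at E10.5. At E10.5, 2 genes of this list, Nr2f1 and Nr2f2, were higher in the mandibular arch. The order of the arches thus held at both stages for Dlx5, Dlx6 and Hand2, and turned for Dlx1 and Nr2f1.

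Markers of surface epithelium were mostly at the floor in the arch libraries. Of 8 surface epithelium markers, 1 was above the floor in each E9.5 arch, 0 in the E10.5 mandibular arch and 2 in the E10.5 maxillary arch, with summed levels of 8.0 to 10 for the 8 genes. Epcam, Cdh1 and Krt8 were at the floor in all 4. In the 2 ectoderm libraries all 8 were above the floor, with summed levels of 234.0 and 295.0. Of the 16 genes in the list of surface and non-neural ectoderm, 4 were above the floor in each E9.5 arch. In the E10.5 mandibular arch 0 were, and in the E10.5 maxillary arch 6. The part of surface ectoderm in the arch levels of Dlx3 and Dlx5 was not tested. Neural epithelium markers were above the floor for 3 of 10 genes in the E9.5 mandibular arch and 6 of 10 in the E9.5 maxillary arch, with summed levels of 14.6 and 32.4, and their part in the Dlx1 difference was not tested.

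Blood markers also differed between the arches, and in the same direction as Dlx1 at each stage. At E9.5, 3 of 5 eligible blood markers were lower in the mandibular arch and 0 higher, with summed levels of the 8 genes of 751 in the mandibular and 1920.0 in the maxillary arch. At E10.5, 3 of 5 were higher in the mandibular arch and 0 lower, with sums of 897 in the mandibular and 425 in the maxillary arch. The genes were Hbb-bh1, Hbb-y and Hba-a1, all globins, at both stages. At E9.5, 4 of 7 eligible olfactory placode genes were also lower in the mandibular arch and 0 higher, namely Emx2, Pax6, Lhx2 and Ebf2. The part of blood and of these genes in the Dlx differences was not tested.

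Across stages, Dlx genes above the floor at E9.5 were lower as deposited in the E10.5 arches, as most genes were. In the mandibular arch, Dlx2 was at 1.14 at E10.5 and 19.4 at E9.5, a 17.0-fold lower level, and Dlx3 was at the floor at E10.5 and 15.1 at E9.5. Dlx5 was 4.55-fold and Dlx6 5.18-fold lower at E10.5, and Dlx1, at 5.99 against 9.0, was 1.5-fold lower and not called. Dlx4, at the floor at E10.5 and 2.07 at E9.5, was not eligible. So 4 of 5 eligible Dlx genes were called lower, where 75.2% of 1975 eligible genes were lower and 8.56% higher, which is no result about the Dlx genes. The median gene was lower by 0.99 on the log2 scale. Relative to it Dlx2 was 8.59-fold, Dlx3 at least 7.60-fold, Dlx6 2.61-fold and Dlx5 2.29-fold lower, where 52.4% of genes were called lower. Dlx1 was 1.32-fold higher relative to the median gene, so its direction depended on that shift.

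In the maxillary arch all 5 eligible Dlx genes were called lower at E10.5, where 83.1% of 2140 eligible genes were lower and 7.43% higher. Dlx2 was at 1.45 at E10.5 and 21.8 at E9.5, a 15-fold lower level. Dlx5 was 9.10-fold and Dlx1 4.31-fold lower, and Dlx3 and Dlx6 were at the floor at E10.5. Dlx4 was at the floor at both stages. The median gene was lower by 1.16 on the log2 scale. Relative to it Dlx2 was 6.72-fold, Dlx5 4.07-fold, Dlx3 at least 3.72-fold, Dlx6 at least 2.62-fold and Dlx1 1.93-fold lower, where 63.6% of genes were called lower. Dlx2 had the largest fold in both arches among genes above the floor at both stages, and its partner Dlx1 had the smallest. Summed levels of the 8 blood markers were 897 at E10.5 and 751 at E9.5 in the mandibular arch and 425 at E10.5 and 1920.0 at E9.5 in the maxillary arch, and their part was not tested.

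Tissue classes were then compared with limma over all 16 libraries, with 4 arch, 2 ectoderm, 4 other mesenchyme (by label) and 6 neural epithelium libraries. A class joins different regions and stages, so these p-values measure spread between regions. The median gene that never ties shifted by −0.20 on the log2 scale for arch against neural epithelium, −0.34 for arch against other mesenchyme, 0.29 for ectoderm against neural epithelium and 0.49 for ectoderm against arch, and folds are given as deposited. Values at the floor entered these fits as they are, so folds and SE of a class with libraries at the floor are not exact. Of the 6 genes, 5 were above the floor in at least 3 libraries and entered the fits, and Dlx4 did not. A gene that enters only through the class where it is high had to differ, which holds for Dlx3, so its fits are no support.

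In the arch libraries, Dlx5 was at 47.2, 22.3, 10.4 and 2.45, against 6.80, 6.16, 2.02 and 3 libraries at the floor in neural epithelium. The groups overlapped, since the E10.5 maxillary arch lay below the 2 highest neural libraries. The log2 fold was 2.61 ± 0.94 (SE) with an adjusted p of 0.253 in limma. The log2 folds of arch over neural epithelium were 1.80 ± 0.96 for Dlx1, 1.69 ± 1.07 for Dlx2 and 0.98 ± 1.10 for Dlx6, with adjusted p of 0.532, 0.638 and 0.825 in limma. Dlx3, at the floor in all 6 neural libraries, had an adjusted p of 0.246. None of the 5 tested Dlx genes passed, and 0.856% of 12851 genes passed in either direction. An unadjusted p under 0.05 was found for 2 of the 5, Dlx5 and Dlx3, and for 1441 of the 12851 genes.

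With the E9.5 arch libraries alone as the arch class, an alternative chosen after the data were seen, Dlx3 passed against neural epithelium at an adjusted p of 0.00165 and the other 4 tested Dlx genes did not. Dlx3 was at the floor in the E10.5 arches thus left out and in every neural library, so this pass is no support. Of other lists in the fit of all arches, Prrx1, Twist1 and Col3a1 of 10 crest and head mesenchyme markers and Ednra and Barx1 of 14 tested distal arch genes were higher in arch. Hbb-bh1 of 7 tested blood markers was 41.4-fold higher, Emcn of 7 tested endothelium markers 8.22-fold higher and Sox21 of 10 neural epithelium markers lower. The blood list had a median log2 fold of 3.94, against 1.40 for the distal arch list and 2.27 for the mesenchyme list, and −0.15 over all genes tested. Summed levels of the 8 blood markers ran from 425 to 1920.0 in the arches and from 8.17 to 112 in neural epithelium, and their part in the Dlx folds was not tested. Ednra is the endothelin receptor of crest cells and Barx1 a homeobox gene of arch mesenchyme.

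Against the other mesenchyme by label, the arches are set beside tissue in which 2 of the 4 libraries had all 6 Dlx genes at the floor. Dlx5 was at 47.2, 22.3, 10.4 and 2.45 in the arches, against 19.4 in the library labelled medial nasal prominence and the floor in the other 3. Dlx1 was at 17.4, 9.0, 5.99 and 4.05 in the arches, against 22.7 in the library labelled medial nasal prominence and the floor in the other 3. Without that library every arch level of Dlx1 and Dlx5 lay above every other mesenchyme level, all at the floor. How many of all genes separate these libraries in this way was not counted, so this is no result about Dlx1 and Dlx5.

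The log2 fold of arch over other mesenchyme was 2.61 ± 1.03 (SE) for Dlx5 and 1.85 ± 1.05 for Dlx1, each with an adjusted p of 0.874 in limma. Without the library labelled medial nasal prominence the log2 folds were 3.68 for Dlx5 and 2.97 for Dlx1, with adjusted p of 0.986 and 1 in limma. Dlx2 had 0.89 with all libraries and 1.87 without that one, and Dlx6 had 0.98 and 2.18, with adjusted p of 0.874 with it and 1 without it in limma. No Dlx gene was called in either fit, where 0.0% of 12851 genes were and 244 had an unadjusted p under 0.05. With the E9.5 arch libraries alone, an alternative chosen after the data were seen, Dlx3 passed at an adjusted p of 0.00418 in limma. Dlx3 was at the floor in the E10.5 arches thus left out and in all 4 other mesenchyme libraries, so this pass is no support.

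In ectoderm, Dlx5 and Dlx6 were high while Dlx1 and Dlx4 were at the floor. The 2 libraries had Dlx5 at 63.9 and 49.0, above all 6 neural libraries, whose highest was 6.80. The log2 fold of ectoderm over neural epithelium was 4.74 ± 1.19 (SE) for Dlx5, with an adjusted p of 0.0836 in limma. This is at least 26.7-fold, since some neural libraries were at the floor. The adjusted p is that of the fit with all 16 libraries. It missed the threshold, as did those of the other 4 tested Dlx genes, where 0.965% of 12851 genes were called in either direction. An unadjusted p under 0.05 was found for 2 of the 5, Dlx5 and Dlx3, and for 1129 of the 12851 genes. Without the library labelled medial nasal prominence, which is in neither class but shares the estimate of spread, Dlx5 passed at an adjusted p of 0.022. It also passed with a filter on the highest level (0.0211), on the log2(level + 1) scale (0.036) and with both classes fitted alone (0.0418). In the other 12 of 16 alternatives it did not pass. Adjusted p was 0.266 with a stage term, 0.446 without the olfactory pit and 0.589 without the epidermal ectoderm, the highest of the 16.

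Dlx6 was at 15.2 in the epidermal ectoderm and 8.17 in the olfactory pit, against 15.7, 9.13 and 4 libraries at the floor in neural epithelium. The groups overlapped, and the log2 fold was 2.29 ± 1.39 (SE) with an adjusted p of 0.735 in limma. Dlx3 was at 4.22 and 2.96 in the ectoderm libraries and at the floor in all neural ones. Dlx2 was at 3.18 in the epidermal ectoderm and at the floor in the olfactory pit. Dlx1, Dlx2 and Dlx3 had adjusted p of 0.83, 0.989 and 0.487 in limma. Levels of Dlx6 thus overlapped between ectoderm and neural epithelium, and those of Dlx5 did not. The share of all genes without overlap between these classes was not counted.

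Set against the arches, the ectoderm libraries had Dlx1 at the floor, and the lowest arch library had 4.05, so that the level in ectoderm was at least 4.05-fold lower. Its adjusted p was 0.447 in limma, with an unadjusted p of 0.0353. Dlx5, at 63.9 and 49.0 in ectoderm, lay above all 4 arches, the highest of which was at 47.2. Its log2 fold of ectoderm over arch was 2.13 ± 1.26 (SE) with an adjusted p of 0.623. Dlx2 had −1.53 ± 1.43, Dlx3 0.08 ± 0.84 and Dlx6 1.30 ± 1.47, with adjusted p of 0.728, 1 and 0.759 in limma, and Dlx3 turned to −0.41 when libraries were centred on the median gene. None of the 5 tested genes was called, where 1.09% of 12851 genes were called in either direction, and 1 of the 5 had an unadjusted p under 0.05, as did 1272 of the 12851 genes. Of markers in this fit, 6 of 7 tested surface epithelium genes were higher in ectoderm, and Prrx1 of the mesenchyme and Emcn of the endothelium list were lower. The share of all genes without overlap between ectoderm and arch, as for Dlx1 and Dlx5, was not counted.

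Around Dlx5 and Dlx6, the ectoderm libraries held the genes of their tissue. Of 13 tested genes in the list of surface and non-neural ectoderm, 7 were higher in ectoderm than in neural epithelium and 0 lower, among them Cldn6, Epcam, Esrp1, Grhl2 and Krt18. Of 14 tested olfactory placode genes, 6 were higher and 0 lower, among them Eya2, Eya1, Sp8 and Neurog1. The list medians of the log2 fold were 3.31 and 1.92, against 0.23 over all genes tested. Of 11 tested BMP genes, which include ligands known to act upstream of Dlx genes in ectoderm, none was called, with a median of 1.01.

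Between the olfactory pit and the epidermal ectoderm, no Dlx gene reached the level and fold of a call. Dlx5 was at 49.0 in the E10.5 olfactory pit and 63.9 in the E9.5 epidermal ectoderm, 1.31-fold lower, and Dlx6 was 1.86-fold and Dlx3 1.42-fold lower. Of 6 genes 2 were eligible and 0 were called, where 20.5% of 2558 eligible genes were called higher and 17.7% lower. Dlx2 was at the floor in the pit, at least 3.18-fold lower. Of 10 crest and head mesenchyme markers, 3 were above the floor in the pit and 6 in the epidermal ectoderm, with summed levels of 10.3 and 27.9, and their part in the Dlx2 level was not tested. Neuron and blood markers moved further: all 7 eligible neuron markers and all 4 eligible blood markers were called higher in the pit. The summed level of the 8 neuron markers was 143 in the pit and 28.9 in the epidermal ectoderm, and that of the 8 blood markers 965 in the pit and 164 in the epidermal ectoderm. Their part in the Dlx levels was not tested. Dlx1 and Dlx4 were at the floor in both libraries.

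Beside the pit lies the lateral nasal prominence, where all 6 Dlx genes were at the floor. Dlx5 was at least 49.0-fold and Dlx6 at least 8.17-fold higher in the olfactory pit, and Dlx3, at 2.96, was not eligible for a call. Both eligible Dlx genes were called higher, where 64.7% of 1914 eligible genes were higher and 7.31% lower. Relative to the median gene, which was higher by 0.60 on the log2 scale, the bounds were 32.3-fold and 5.39-fold. Of the 14 olfactory placode genes, 13 were eligible and all 13 were higher in the pit. Neuron markers were above the floor for 8 of 8 genes in the pit and 1 of 8 in the prominence, with summed levels of 143 and 8.96, and their part was not tested. Dlx1, Dlx2 and Dlx4 were at the floor in both.

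Outside the arches, Dlx1, Dlx2, Dlx5 and Dlx6 were above the floor together in 3 libraries, all of E10.5, while Dlx3 and Dlx4 were at the floor in each. The titles do not name the forebrain, and these libraries are set beside forebrain genes below. In the library labelled medial nasal prominence they were at 22.7, 21.2, 19.4 and 27.3. In the lateral prominence neural epithelium they were at 8.07, 4.63, 6.80 and 15.7, and in the library labelled dorsal control at 8.36, 3.54, 6.16 and 9.13. In the library labelled central, Dlx1 was at 1.91 and the others were at the floor. The 3 E8.5 neural libraries had Dlx5 at 2.02 in the non-floor plate library, and every other Dlx value was at the floor.

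**Figure D3:**
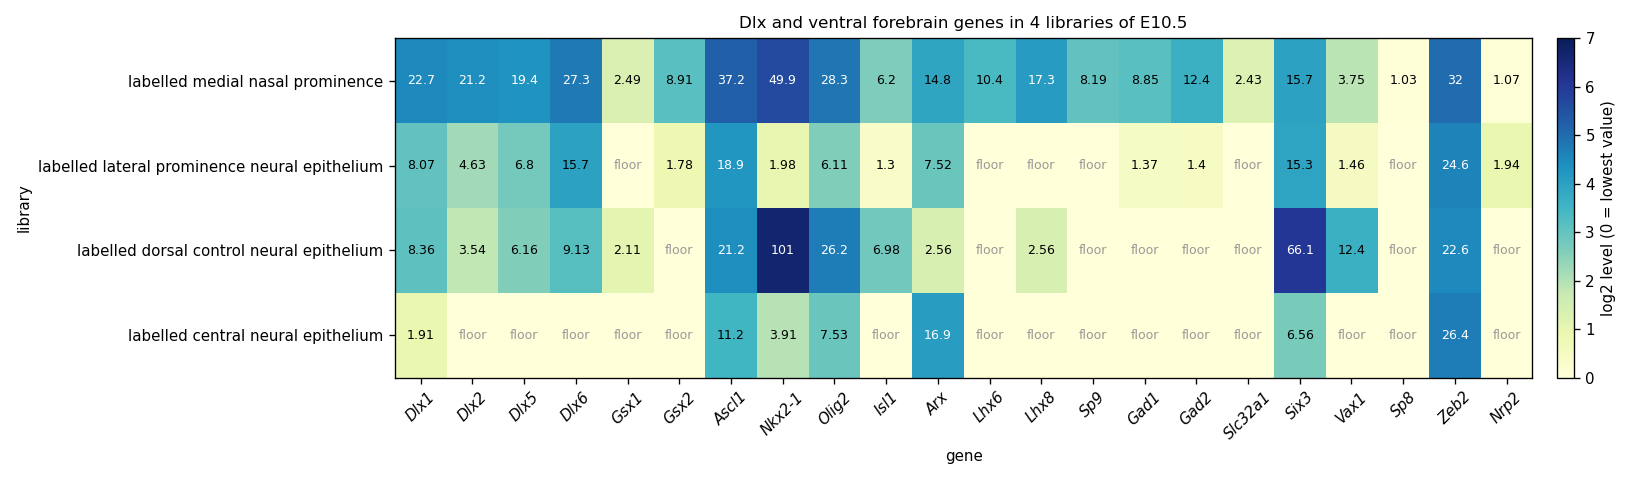
Levels of 4 Dlx genes and 18 ventral forebrain genes (columns) in 4 E10.5 libraries (rows). Colour is log2 of the level, numbers are levels and "floor" marks the shared lowest value of a gene. The library labelled medial nasal prominence holds all of them above the floor, and the one labelled central holds Dlx1 at 1.91 with the other 3 Dlx genes at the floor.

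Ventral forebrain genes were then read in the same libraries. Of 18 measured genes in that list, 18 were above the floor in the library labelled medial nasal prominence, where 69.4% of all genes were. The lateral prominence library had 12 above the floor (58.1% of all genes), the one labelled dorsal control 10 (62.0%) and the one labelled central 6 (57.3%). The counts in the lateral prominence library and the one labelled dorsal control are thus near the shares of all genes and are no result about the list. Of the genes for GABA synthesis, the library labelled medial nasal prominence had Gad1 at 8.85 and Gad2 at 12.4, and the other 3 had each at 1.40 or less. Gsx2, a homeobox gene of the lateral ganglionic eminence, was at 8.91 there, at 1.78 in the lateral prominence library and at the floor in the other 2. Neuron markers were above the floor for 7 of 8 genes in each of the 4, with summed levels of 132.0 in the library labelled medial nasal prominence and 36.0 to 61.4 in the others, and their part was not tested.

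Regional forebrain factors differed between these libraries. Nkx2-1, a factor of the most ventral forebrain, was at 101 in the library labelled dorsal control, 49.9 in the one labelled medial nasal prominence, 3.91 in the one labelled central and 1.98 in the lateral prominence library. Pax6, which is high in dorsal telencephalon, was at 66.6 in the library labelled central, 43.8 in the lateral prominence library, 1.51 in the one labelled medial nasal prominence and at the floor in the one labelled dorsal control. The high Dlx levels thus appear in libraries with Nkx2-1 high and Pax6 low, and in the lateral prominence library with the reverse. In the library labelled dorsal control, Nkx2-1 at 101 and Pax6 at the floor go against the word dorsal. Its Dlx levels are therefore not read as those of a dorsal tissue. If the column headers are followed in place of the titles, the names of the libraries labelled central and dorsal control change places and the values stay.

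Set against the library labelled central, the lateral prominence library had Dlx1 4.22-fold, Dlx5 at least 6.80-fold and Dlx6 at least 15.7-fold higher. All 3 eligible Dlx genes were called higher, where 18.3% of 749 eligible genes were higher and 16.7% lower. Dlx2, at 4.63 against the floor, was just under the level for a call. The library labelled dorsal control had Dlx1 4.37-fold, Dlx5 at least 6.16-fold and Dlx6 at least 9.13-fold higher than the library labelled central, again all 3 eligible, where 45.8% of 1150 eligible genes were higher and 12.7% lower. Both comparisons share the library labelled central. Between the lateral prominence library and the one labelled dorsal control, folds were 1.04 lower for Dlx1, 1.10 higher for Dlx5, 1.31 higher for Dlx2 and 1.71 higher for Dlx6. None was called, where 13.7% of 1178 eligible genes were called higher and 41.9% lower.

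Between linked partners, levels moved together over the libraries for Dlx5 and Dlx6 and for Dlx1 and Dlx2. Dlx5 and Dlx6 were both above the floor in 8 libraries, Dlx5 alone in 2, Dlx6 alone in 0 and neither in 6. Pearson's r of their log2 levels was 0.88 and Spearman's rho 0.83 over 16 libraries, and Dlx6 ranked 2 among 5052 genes by likeness to Dlx5. Dlx1 and Dlx2 were both above the floor in 7 libraries, Dlx1 alone in 1 (labelled central), Dlx2 alone in 2 and neither in 6. Their r was 0.80 and rho 0.81, and Dlx2 ranked 4 among 5052 genes by likeness to Dlx1. These are descriptions over regions that share a floor and a stage, with no test.

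**Figure D4:**
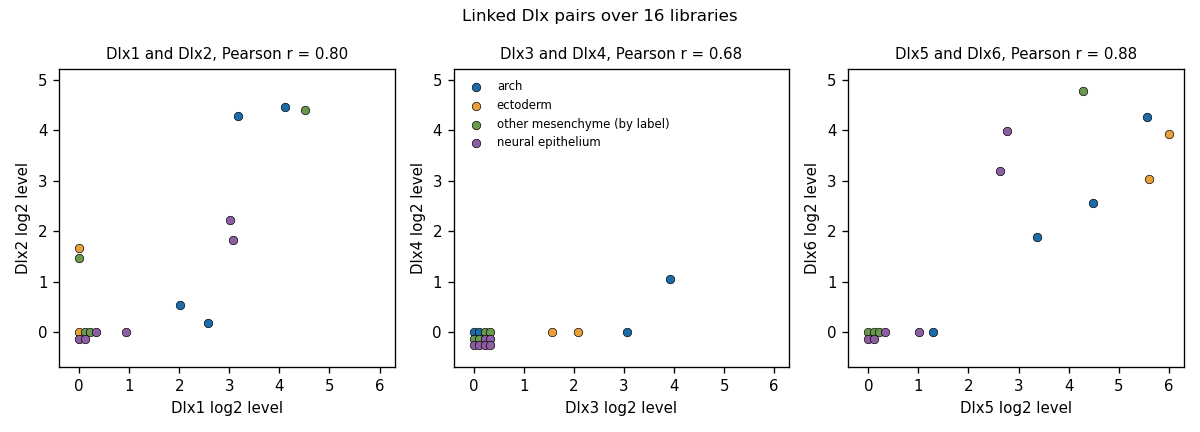
Log2 level of the linked partners of each pair in the 16 libraries, 1 point a library, coloured by tissue class as labelled. Points at the same place are set side by side, so small offsets at 0 carry no value. Dlx5 and Dlx6 (r = 0.88) and Dlx1 and Dlx2 (r = 0.80) run together, and Dlx4 leaves the floor in 1 library.

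Dlx3 and Dlx4 were both above the floor in 1 library, Dlx3 alone in 3, Dlx4 alone in 0 and neither in 12. Their r of 0.68 rests on that library. Genes of different pairs were also alike: r was 0.74 for Dlx2 and Dlx6, 0.73 for Dlx3 and Dlx5, 0.66 for Dlx1 and Dlx6 and 0.61 for Dlx2 and Dlx3 and for Dlx2 and Dlx5. It was 0.49 for Dlx1 and Dlx5 and 0.29 for Dlx1 and Dlx3. The 2 libraries that set Dlx1 and Dlx5 apart most are the ectoderm ones, with Dlx5 at 63.9 and 49.0 and Dlx1 at the floor.

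The order of tissues was not the same for both partners of a pair. From the highest to the lowest of 3 E9.5 libraries, Dlx5 ran epidermal ectoderm, mandibular arch, maxillary arch at 63.9, 47.2 and 22.3, while Dlx6 ran mandibular arch, epidermal ectoderm, maxillary arch at 19.2, 15.2 and 5.86. In the neural libraries of E10.5 Dlx6 reached 15.7 and 9.13, against 15.2 in the epidermal ectoderm, while Dlx5 reached 6.80 and 6.16, against 63.9 there.

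Antisense transcripts at these loci were high in many of the same libraries. Dlx6as1, an antisense RNA at the Dlx5 and Dlx6 locus, was above the floor in 8 libraries, at 18.7 in the library labelled medial nasal prominence, 18.3 in the E9.5 mandibular arch, 7.80 in the epidermal ectoderm and 7.62 in the olfactory pit. Its r of log2 level was 0.957 with Dlx6 and 0.912 with Dlx5. In the arch fit its log2 fold of mandibular over maxillary was 2.04 ± 0.40 (SE), at an unadjusted p of 0.00425 and an adjusted p of 1 in limma. That fold is a lower bound, since Dlx6as1 was at the floor in the E10.5 maxillary arch. Dlx1as was above the floor in 6 libraries, highest at 12.5 in the library labelled medial nasal prominence and 4.70 in the E9.5 maxillary arch, with an r of 0.836 to Dlx1. Dlx6as was above the floor in 3, at 3.04 in the lateral prominence library, 2.69 in the one labelled medial nasal prominence and 1.30 in the E9.5 mandibular arch.

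Whether the counting used strand is not given in the sources used here, so reads of overlapping sense and antisense genes may not be separable. In GENCODE transcripts, 289 windows of 50 bases, the read length, were shared on opposite strands by Dlx1 and Dlx1as, or 18.3% of those of Dlx1as. Dlx6as had no match by Ensembl ID there. Dlx6as1, matched by its ID to Dlx6os1, shared 0 with any Dlx member. No 2 members shared a window, so no 50-base read from the annotated transcripts of 1 member matches another exactly.

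Genes outside the family with the most alike pattern were found by Pearson's r of log2 level over the 16 libraries, among 5052 genes with a highest level of at least 5. For Dlx1 they were Klf12 (r 0.844), Lhx8 (0.812), Ap1s2, Aff2 and Slc25a12 (0.717). For Dlx2 they were Hist1h3f (0.806), Ap1s2 (0.796), Rnf122, Gm10762 and Fam89b (0.751). For Dlx5 they were Cbx6 (0.860), Mllt6, Echdc2, Tshz1 and Mecom (0.811), and for Dlx6 they were Cbx6 (0.898), Faxc, Rnf11, Gcdh and Wsb2 (0.775). For Dlx3, above the floor in 4 libraries, they were 2610018G03Rik (0.908), Rap2c, Snora47, Osbpl8 and Mbnl3 (0.817). Lhx8, a LIM homeobox gene of arch mesenchyme and ventral forebrain, was at 17.3 both in the library labelled medial nasal prominence and in the E9.5 maxillary arch, the 2 libraries where Dlx1 was highest. Dlx4 was left out, since 1 library was above its floor.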

How the data were processed

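Total RNA of 16 libraries was read as 50-base single-end reads at more than 40000000 reads a library, per the labels' protocols, so exact depths, counting intervals and detection limits are not given here. The submitters' processing notes name Bowtie, TopHat, TopHat2, Cufflinks and the mouse build mm9. The values the authors deposited are a ratio: the median of each gene over all 16 libraries was 1, to within 1.5e-07, and the lowest value was shared by several libraries in 8794 of 15876 genes. The unit before the division, gene filters and strand use: not given in the sources used here.

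Levels are values divided by the lowest one of the same gene. Tissue classes were compared with limma 3.58.1 (R 4.3.3; trend, empirical Bayes) on log2 ratios as deposited, for genes that exceeded their floor in 3 or more fitted libraries. Calls needed an adjusted p (Benjamini-Hochberg) under 0.05 and 2-fold or more. The fit was tested on simulated data. Between single libraries, a call needed 2-fold or more and a level of 5 or more in the higher one, with no p. The rule for names was every Dlx gene in each comparison and, of each list, the genes called, at most 5 in each direction by size of fold. Of lists away from the comparison's tissues, counts, fewer names or no values are printed. Gad1, Gad2, Gsx2, Nkx2-1, Pax6 and Lhx8 in the libraries read for ventral forebrain genes were chosen after their values were seen. The Dlx members and gene lists were chosen with earlier results of these data known. Alternatives were centring on the median gene, other filters and levels, log2(level + 1), fits of fewer libraries and a stage term. Promoters came from RefSeq tables that held Dlx1 and Dlx2 of the 6 genes. Sequences of the other 4 and of proteins were not used here. A gene of the lists is not reported here by name.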

Additional observations from a re-analysis of the deposited data

Results flagged for a closer look

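In the 4 libraries labelled other mesenchyme, Dlx1 at 22.7, Dlx5 at 19.4 and Dlx6 at 27.3 in the library labelled medial nasal prominence stood far from the other 3 libraries, which were all at the floor. That library held 10 of 10 neural epithelium markers above the floor. In the 4 arch libraries, Dlx4 at 2.07 in the E9.5 mandibular arch stood apart from the other 3, all at the floor. These are 4 of 14 groups of a gene and a class that were examined. With the other 3 libraries at the same floor, any level above it in the remaining library is flagged. The usual chance rate of about 1 of 20 groups therefore does not hold here, and the count is no result.

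The log2 difference of mandibular minus maxillary arch for Dlx1 was −0.96 at E9.5 and 0.57 at E10.5, opposite in sign. With 1 library for each arch and stage, this difference was not tested.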

How the results depend on the processing

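No paired analysis was possible because the labels give no replicate numbers that pair libraries, and the 1 comparison blocked by stage is that of the 4 arch libraries. No Dlx gene passed in the 5 limma comparisons under most settings. Dlx3 was an exception in arch against neural epithelium and against other mesenchyme, with the E9.5 arch libraries alone. That setting was chosen after the data were seen and leaves out the E10.5 arches, where Dlx3 was at the floor, so it is no support. Dlx5 was another, in ectoderm against neural epithelium, with a filter on the highest level and with log2(level + 1). Dlx5 was also called there with both classes alone and without the library labelled medial nasal prominence.

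Counts of all genes called moved more, and the cause was not tested. Arch against neural epithelium gave 110 genes, and 193 centred on the median gene, 64 with no filter, 65 with log2(level + 1), 237 with both classes alone, 281 without the library labelled medial nasal prominence, 33 with a stage term and 16 (without the E9.5 mandibular arch) to 86 without 1 library. Arch against other mesenchyme gave 0, and 2 with log2(level + 1), 2 with no trend, 3 with the E9.5 arches alone and 0 to 1 (without the E9.5 maxillary arch) without 1 library. Ectoderm against neural epithelium gave 124, and 52 centred, 225 with no filter, 51 with the filter on the highest level, 58 with both classes alone and 62 to 119 without 1 library, with 62 without the olfactory pit and 70 without the epidermal ectoderm. Ectoderm against arch gave 140, and 40 centred, 240 with no filter, 56 with that filter, 4 with both classes alone, 222 with a stage term and 58 to 128 without 1 library, with 58 without the olfactory pit, 77 without the epidermal ectoderm and 87 without the E10.5 mandibular arch. Mandibular against maxillary arch gave 0, 1 with all 16 libraries fitted and 0 to 2 (without the E9.5 maxillary arch, no stage term) without 1 library.

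A minimum level of 3 in place of 5 raised the genes called in the 9 single-library comparisons. They were 973 and 906 for mandibular against maxillary arch at E9.5 and E10.5, 3730 and 4205 for E10.5 against E9.5 in the mandibular and maxillary arch, 1648 and 2884 for the olfactory pit against epidermal ectoderm and lateral nasal prominence, 668 and 1458 for lateral prominence against labelled central and dorsal control, and 1482 for labelled dorsal control against central. The r of Dlx3 and Dlx4, 0.68, was 0.30 relative to the median gene, 0.55 as a rank correlation and 0.68 to 0.83 without 1 library. It was 0.75 to 0.86 for Dlx1 and Dlx2 and 0.87 to 0.92 for Dlx5 and Dlx6 without 1 library.

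Between single libraries, the log2 fold of Dlx1 in the E10.5 against the E9.5 mandibular arch was −0.587, and 0.4 relative to the median gene. In lateral prominence against labelled dorsal control it was −0.051, and 0.035 relative to the median gene, and neither was called. Log2 folds of the limma fits that changed sign, none of them called, were these. Arch against neural epithelium for Dlx6 was −0.32 with a stage term. Ectoderm against neural epithelium for Dlx2 was −0.11 centred, −0.92 with a stage term and −0.67 to 0.996 without 1 library, lowest without the epidermal ectoderm. Ectoderm against arch for Dlx3 was −0.41 centred, −0.12 with log2(level + 1), −0.18 without the epidermal ectoderm and −0.50 without either E10.5 arch, in a range up to 0.80. Mandibular against maxillary arch, fitted with no stage term, was 0.86 for Dlx1 and 1.69 for Dlx2 without the E9.5 maxillary arch, 0.10 and 1.78 without the E10.5 mandibular arch, and −0.011 for Dlx5 without the E10.5 maxillary arch. Values raised to a floor hide differences below it, and a single library for each region and stage leaves biological spread unknown.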
